A study of Drosophila melanogaster with 3 samples.

Results

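The genes of the Wingless pathway were examined in a map of chromatin binding of CG30403, an uncharacterised Drosophila melanogaster protein. The 10 genes, wg, arm, pan, fz, fz2, Axn, nkd, dsh, arr and sgg, were taken by name, with no threshold on a binding value, among 13945 protein-coding genes on arms 2L, 2R, 3L, 3R, 4 and X. Each locus was the annotated gene with 5 kb on each side. The 10 loci covered 484.2 kb and held 51 of the 7827 optimal summits. The data are chromatin immunoprecipitation followed by sequencing (ChIP-seq) of whole embryos aged 0 to 24 hours, of both sexes, from a transgenic line that stably makes CG30403 with enhanced green fluorescent protein (eGFP) on its C-terminal end, and the antibody was against GFP. All 3 samples are biological replicates of this single group, so no condition was compared. A whole embryo mixes all cell types, and a summit cannot be assigned to any of them. A region is a stretch that the authors' peak caller reported, its summit is the base that the caller marked as the peak, and the optimal list holds the regions the authors kept as reproducible. The signal is the authors' own score, without a stated scale, and rank 1 is the strongest region of a list. Read depth is unknown.

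Wingless is a secreted Wnt protein that patterns segments, imaginal discs and the gut of the fly. It is received by Frizzled receptors with the co-receptor Arrow. Without ligand, a destruction complex built on Axin, with the kinase Shaggy, marks Armadillo (beta-catenin) for degradation. With ligand, Dishevelled takes the complex out of action, and Armadillo enters the nucleus and acts with Pangolin, the fly TCF, on target genes.

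The sequences below lie under summits that the results turn on. They show the strongest summit at a promoter of these genes (sgg), the strongest outside promoters (fz), and the summits with the TCF core motif CTTTGAT within 150 bp. Each is 300 bases of the plus strand of the Release 6 assembly from RefSeq, which has the coordinates of dm6, with the summit at base 151. None overlaps an annotated exon. Capitals mark the searched motifs, which are the TCF core (ATCAAAG on the opposite strand) and, in fz2, GAGAG. The fz sequence held none of the motifs searched.
sgg promoter (chrX:2646280-2646579): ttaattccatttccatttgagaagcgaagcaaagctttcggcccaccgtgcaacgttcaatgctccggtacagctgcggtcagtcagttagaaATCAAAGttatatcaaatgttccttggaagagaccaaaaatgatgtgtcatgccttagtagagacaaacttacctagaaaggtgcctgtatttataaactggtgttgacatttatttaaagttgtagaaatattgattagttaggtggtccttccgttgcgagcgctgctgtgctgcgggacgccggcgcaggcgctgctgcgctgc
fz intron (chr3L:14303914-14304213): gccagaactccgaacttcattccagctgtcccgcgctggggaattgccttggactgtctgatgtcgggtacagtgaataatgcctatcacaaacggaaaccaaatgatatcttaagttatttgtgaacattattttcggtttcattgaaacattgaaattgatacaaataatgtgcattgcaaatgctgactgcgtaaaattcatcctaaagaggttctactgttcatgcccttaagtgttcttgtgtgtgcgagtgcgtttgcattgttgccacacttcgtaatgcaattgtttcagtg
fz2 intron (chr3L:19194112-19194411): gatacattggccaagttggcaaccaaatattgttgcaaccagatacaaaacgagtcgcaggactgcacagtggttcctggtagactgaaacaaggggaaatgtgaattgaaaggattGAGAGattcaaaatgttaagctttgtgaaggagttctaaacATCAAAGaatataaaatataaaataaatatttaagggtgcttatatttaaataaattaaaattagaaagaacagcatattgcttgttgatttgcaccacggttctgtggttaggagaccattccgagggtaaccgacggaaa
Axn upstream (chr3R:30021122-30021421): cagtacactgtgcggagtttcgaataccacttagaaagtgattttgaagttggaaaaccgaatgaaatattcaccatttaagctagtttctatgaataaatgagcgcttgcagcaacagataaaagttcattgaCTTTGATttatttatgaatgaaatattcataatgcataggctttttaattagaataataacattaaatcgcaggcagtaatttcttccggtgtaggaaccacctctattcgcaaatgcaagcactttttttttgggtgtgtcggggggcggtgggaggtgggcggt

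Summits lay in most of these loci, mainly in the introns of 5 genes. Of the 10 genes, 9 had an optimal summit in the gene or within 5 kb, against 62.6% of all protein-coding genes. At pan, Axn and dsh every such summit lay outside the gene, at the promoter or in the body of another gene. The 62.6% covers genes of all lengths and is not matched to the lengths of these 10. At the promoter, the 500 bp on either side of a transcription start site (TSS), 4 of them carried a summit: arm, nkd, arr and sgg. Of all protein-coding genes, 30.2% had such a promoter summit, so 4 of 10 is close to the background. By number of TSS positions, the background was 24.2% for genes with 1, 44% for genes with 2 or 3 and 65.7% for genes with 4 or more. Among the Wingless genes, 2 of 5 with 1 position, 0 of 2 with 2 or 3, and 2 of 3 with 4 or more had a promoter summit.

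**Figure D1:**
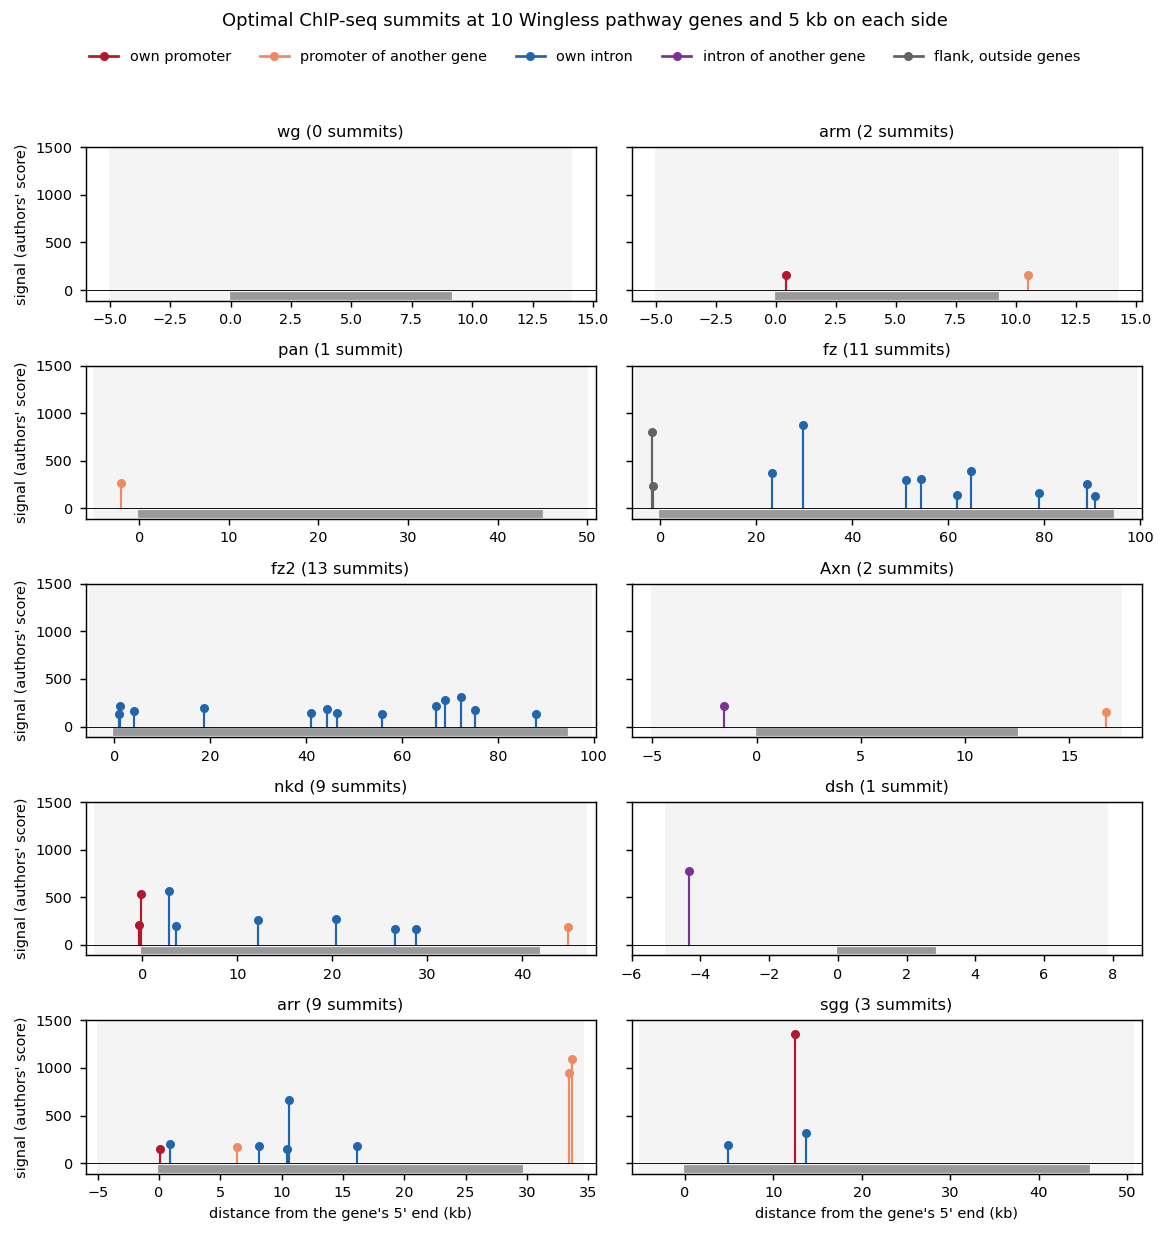
Optimal summits at the 10 genes. The x axis gives kb from the 5' end of each gene in the direction of transcription, the y axis the authors' signal score; the grey bar is the gene, the shaded area the gene with 5 kb on each side, and colours give the location of each summit. The tallest summit is that of sgg with a signal of 1353, fz and fz2 carry 11 and 13 summits, and wg has none.

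The 51 summits fell into 47 separate regions. Of them, 35 (68.6%) lay in introns of the named genes and 5 at their promoters. A further 7 lay at promoters of neighbouring genes, 2 in introns of neighbouring genes and 2 in flanks outside any gene. None lay in a coding exon or an untranslated region of the 10 genes. Counting neighbours, 12 of 51 (23.5%) were at the promoter of a protein-coding gene, against 46% of all optimal summits. The 46% is not matched to whole gene loci of these lengths, and no share of all optimal summits in introns is given here. The genes fz, fz2, nkd and arr, 29590 to 94399 bp long, held 42 of the 51. The intronic summits lay 695 to 90527 bp from the nearest TSS of their gene, with a median of 12115 bp, and 21 of the 35 lay more than 10 kb away. The density over the loci was 1.05 summits per 10 kb, and that over the arms 0.585. The arm density counts all sequence, in genes or between them, and no density over other gene loci is given here. The summits were not strong for the list: their median signal was 203, against 244 over all optimal summits. The strongest 25% of the list held 9 of the 51 (17.6%) and the weakest 25% held 17 (33.3%).

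The ligand gene wg (FBgn0284084, 2L:7307159-7316265, dm6) had no optimal summit in its locus. The nearest lay 8220 bp upstream of its TSS and was weak, with a signal of 131.4 and rank 7674 of 7827. The authors' pooled list, which runs on into background, had 6 regions in the locus, all below the optimal list; the strongest ranked 8089 with a signal of 124.4. The weakest signal in the optimal list was 128.9. The best regions of the locus in replicates 1, 2 and 3 ranked 21097, 10331 and 5363, so that replicate 3 alone had 1 within its strongest 7827. Within 500 bp of the TSS the pooled list had a single region, at rank 28610. Replicates 1 and 2 listed no region there, and replicate 3 had 1 at rank 13585. No list placed the wg promoter among its strongest 7827 regions.

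The receptor genes carried most of the summits. The gene fz2 (FBgn0016797, 3L:19140975-19235373), which encodes the receptor Frizzled 2, had 13, all in its introns. Their signals ran from 131.2 to 314.7. They were spread over all 5 introns, with 4 in intron 4 (24982 bp), 3 in intron 3 (25751 bp) and 2 in each of the others. No fz2 summit stood far above the rest. The strongest, at 3L:19163122, ranked 1755, 3790 and 3127 in replicates 1, 2 and 3. The nearest to a start site lay 695 bp upstream of an internal TSS and therefore fell outside the promoter window. At the fz2 promoters themselves the pooled list had its best region at rank 11318, and replicate 3 alone placed a region among its strongest 7827, at rank 7607.

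The gene fz (FBgn0001085, 3L:14274343-14368639), which encodes Frizzled, had 11 summits. Of these, 9 lay in introns, 7 of them in intron 4 (49410 bp) and 2 in intron 1 (29170 bp). The strongest, in intron 1 at 3L:14304064, 29721 bp into the gene, had a signal of 876.6 and ranked 749, 707 and 359 in replicates 1, 2 and 3. Its sequence is shown above. The second, 1750 bp upstream of the only annotated TSS, had a signal of 805.4 and ranked 402, 504 and 965. Both were among the strongest 1000 regions of every replicate. The weaker intronic summits varied more, for example that at 3L:14353345 with ranks 13050, 6764 and 5321. The promoter of fz lay far below the optimal list, with ranks of 16858, 15531 and 11807 in replicates 1, 2 and 3.

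The gene arr (FBgn0000119, 2R:13453640-13483229), which encodes the co-receptor Arrow, had 9 summits and the highest density of the 10 loci, 2.27 per 10 kb. The highest signals of the locus, 1089 and 951.7, lay 185 and 387 bp from the TSS of the neighbouring gene cnn, which encodes the centrosomal protein Centrosomin. The promoter summit of arr itself was weak, with a signal of 146.9 at 79 bp downstream of the TSS. It ranked 5156, 6926 and 7347 in replicates 1, 2 and 3, inside the strongest 7827 each time. Inside the gene the leading summit, in intron 2 at 2R:13472630, had a signal of 666.2. It ranked 1143, 856 and 12789 in replicates 1, 2 and 3, so that replicate 3 did not hold it among its strongest 7827. The merged region that it forms with a second summit was overlapped by regions of rank 1143, 856 and 788 in the 3 replicates. A further summit in intron 2 lay 433 bp from the TSS of the nested gene CG43192.

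Of the cytoplasmic components, sgg and nkd had promoter summits and dsh and Axn had none. The gene sgg (FBgn0003371, X:2633952-2679553), which encodes the glycogen synthase kinase 3 homologue Shaggy, held the strongest summit of all 51. It had a signal of 1353, lay 207 bp upstream of the TSS at X:2646637 and ranked 196, 208 and 193 in replicates 1, 2 and 3. The replicates nearly coincided. Of the 19 annotated sgg transcripts, 1 starts at this TSS, 1 of 11 start positions, and for transcripts that start further upstream the summit is intronic. No other protein-coding gene has a TSS within 500 bp of it. A weaker summit followed 963 bp downstream of the same TSS (signal 317.9), and 1 lay near another start site (signal 188.4, 1435 bp away).

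The gene nkd (FBgn0002945, 3L:19003741-19045449), which encodes Naked cuticle, a feedback antagonist that binds Dishevelled, had 9 summits. Its promoter region carried 2, at 133 and 335 bp upstream of the TSS, with signals of 535 and 204.8. The stronger ranked 954, 1175 and 1699 in replicates 1, 2 and 3. All 6 intronic summits lay in intron 1 (33245 bp). The strongest of them, 2739 bp downstream of the TSS, had a signal of 563.9 and ranked 956 and 1176 in replicates 1 and 2. In replicate 3 no region covered that base, but a region of rank 1470 overlapped the same optimal region. The other intronic summits had signals of 167.9 to 270.5. A last summit belonged to the promoter of the neighbouring gene CG3808, 76 bp from its TSS.

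The promoter of dsh (FBgn0000499, X:11355881-11358724), which encodes Dishevelled, lay just under the threshold of the optimal list. Its pooled region had a signal of 120 and rank 8363, 97 bp from the TSS. It ranked 8984, 8655 and 7875 in replicates 1, 2 and 3, each time below the strongest 7827. The only optimal summit of the locus (signal 772.7; ranks 922, 845 and 473) lay 4343 bp upstream, in an intron of CG1737. The gene Axn (FBgn0026597, 3R:30022842-30035311), which encodes the scaffold Axin, had none in its body either. A summit 1570 bp upstream, in an intron of Mgat2, had a signal of 221.2 and ranked 5208, 4613 and 4416. The other lay at the promoters of janA, Sry-alpha and Sry-beta (signal 153.3). At the Axn promoters the best regions ranked 25479, 8512 and 12403 in the replicates.

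Of the nuclear effectors among the 10 genes, arm had a weak promoter summit and pan had none in the optimal list. The gene arm (FBgn0000117, X:1891401-1900646), which encodes Armadillo, had a promoter summit with a signal of 161.9, 56 bp upstream of a TSS. It ranked 6501 and 5173 in replicates 1 and 2 and 8893 in replicate 3, which falls outside the strongest 7827. The other summit of its locus lay at the promoters of mRpL16 and trr, 128 and 178 bp from their TSSs. The gene pan (FBgn0085432, 4:69326-114270), which encodes Pangolin, had no optimal summit in its 44945 bp. The single summit of its locus was 94 bp from the TSS of RpS3A, a ribosomal protein gene, with a signal of 264.8. At the pan promoters regions ranked 7930, 5983 and 10247 in the replicates, so that replicate 2 alone placed 1 within its strongest 7827. The best pooled region there had a signal of 105.6 and rank 9396, below the optimal list. Chromosome 4 as a whole had 0.2 optimal summits per 10 kb, against 0.541 to 0.647 on the other arms, and the pan locus had 0.182.

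**Figure D2:**
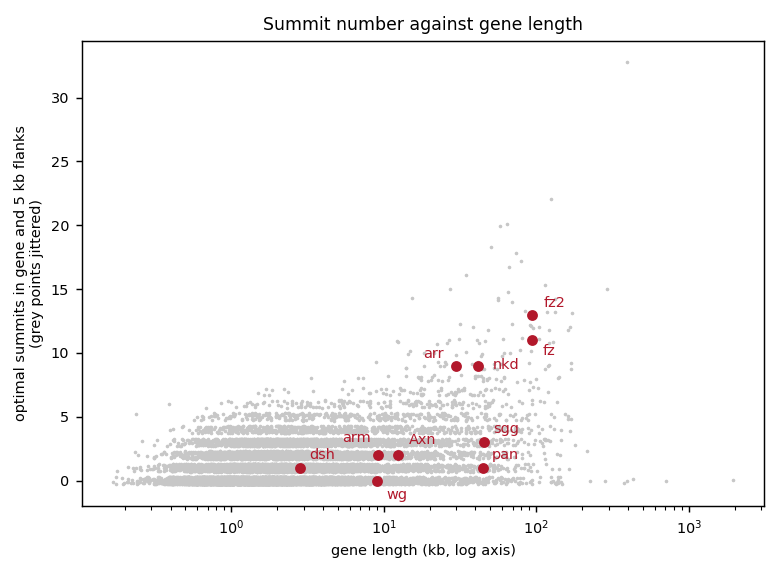
Number of optimal summits in each gene with 5 kb on each side (y axis) against gene length in kb (x axis, log scale). Grey points are the 13945 protein-coding genes, jittered vertically, and red points the 10 Wingless pathway genes; fz2, fz, nkd and arr hold 13, 11, 9 and 9 summits, and pan, of about the length of nkd, holds 1.

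Summit number followed gene length only in part. The 4 genes fz, fz2, nkd and arr held 42 of the 51 summits. Among the 180 protein-coding genes whose length was within 1.5 times that of fz, the median was 3 summits, and 13.3% had 11 or more. For fz2 the median was also 3, and 7.22% had 13 or more. Among the 512 genes within 1.5 times the length of nkd the median was 2, and 6.05% had 9 or more. For arr the median was 2 among 645 genes, and 4.19% had 9 or more. All these counts include summits at promoters of other genes, which made up 3 of the 9 at arr and 1 of the 9 at nkd. The gene sgg (3 summits, median 2) and pan (1 summit, median 2) are about as long as nkd but near or under the median. These shares describe the annotation and the list and are not tests.

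A summit was counted as found where it lay inside 1 of the 7827 strongest regions of a replicate. By this count replicates 1, 2 and 3 held 40, 46 and 40 of the 51 summits (82.4% ± 6.79, SD, n = 3). Of the 9 in the strongest 25% of the optimal list all 3 replicates held 7, and of the other 42 they held 19. In total all 3 held 26, 51% (95% exact binomial interval 36.6 to 65.2%, which covers counting only). Of all optimal summits, 70.5% were held by all 3. Another 23 were found in 2 replicates and 2, both in fz2 introns, in 1. In the full lists, 46 were found in every replicate. The optimal list was selected for reproducibility in these replicates, so these shares are descriptions. The number of Wingless genes with a promoter summit in the strongest 7827 regions was 4, 5 and 4 in replicates 1, 2 and 3 (4.33 ± 0.577, SD, n = 3). The background was 28.1%, 30% and 30.4% of protein-coding genes. The genes nkd, arr and sgg were bound at the promoter in each replicate. The gene arm was so in replicates 1 and 2, pan in replicate 2 and fz2 in replicate 3.

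**Figure D3:**
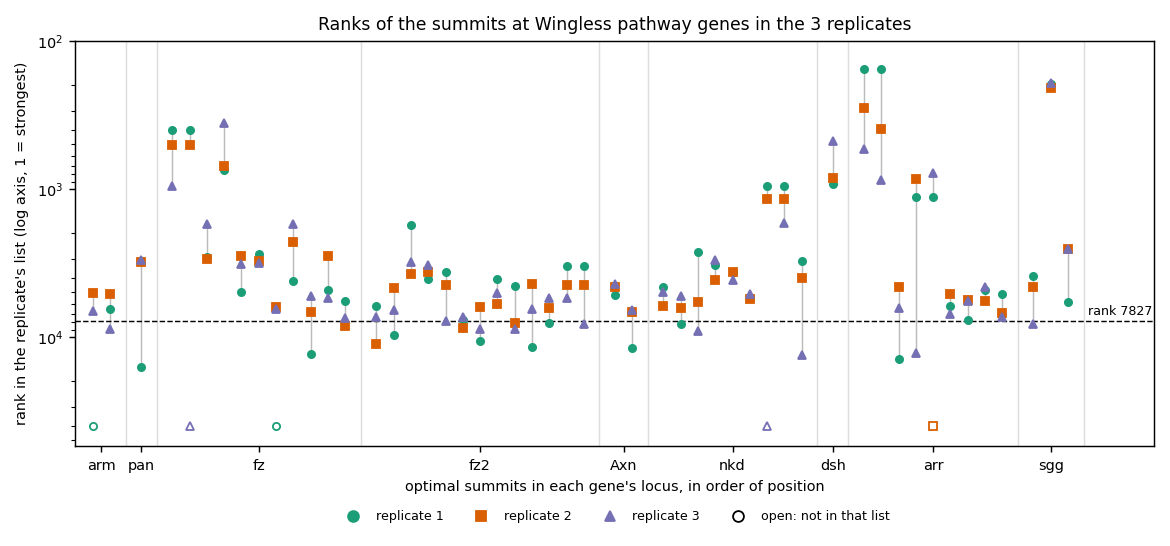
Rank of each of the 51 summits in the list of each replicate (y axis, log scale, 1 is the strongest), in order of position within each gene (x axis). Symbols are the 3 replicates, grey lines join them, open symbols mark summits that no region of that replicate covers, and the dashed line is rank 7827; the ranks of the sgg promoter summit, 196, 208 and 193, nearly coincide, while many fz2 summits straddle the line.

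Beyond the 10 genes, promoter summits of the optimal list were found at most of the cytoplasmic and nuclear components and at few ligand and receptor genes. Some of these summits also lay at the promoter of a neighbouring gene. Of 32 further genes of Wnt signalling, 17 (53.1%) had a promoter summit, against the 30.2% of all protein-coding genes. The list includes other Wnt ligands and receptors, which need not act in Wingless signalling. These 32 were chosen with earlier results of these data known, and the 30.2% is not matched for number of TSS positions. Together with the 10 Wingless genes above, promoter summits were found at 9 of 12 genes of cytoplasmic components and 7 of 10 of nuclear ones. They were found at 3 of 6 genes of secretion and the extracellular space, 1 of 7 ligand genes and 1 of 7 receptor genes. Counting only genes that were also promoter-bound in the strongest 7827 regions of every replicate, these became 7 of 12 cytoplasmic, 4 of 10 nuclear and 1 of 6 secretion and extracellular genes, with 1 of 7 in each of the other two roles. With promoter summits shared with another protein-coding gene left out, the optimal list gave 5 of 12 cytoplasmic and 6 of 10 nuclear genes. It gave 1 of 6 secretion and extracellular genes, and again 1 of 7 in each of the other 2 roles. No share of all protein-coding genes is given for either filter, so these filtered counts cannot be set against a background. The bound ligand gene was Wnt6 (signal 692) and the bound receptor gene arr. The roles differ in start sites as well: all 7 ligand genes and 5 of 7 receptor genes have 1 TSS position, but 6 of 12 cytoplasmic and 3 of 10 nuclear ones. Among genes with 1 TSS position, promoter summits were at 4 of 6 cytoplasmic, 2 of 3 nuclear and 3 of 4 secretion and extracellular genes. They were at 1 of 5 such receptor genes and 1 of 7 ligand genes. The part of start site number in the difference between roles was not tested.

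Among the cytoplasmic components, gish, which encodes a casein kinase 1 of the gamma class, had the strongest promoter summit of all 42 genes. It had a signal of 2473 and ranks of 23, 36 and 42 in replicates 1, 2 and 3. The genes sgg (1353) and nkd (535) followed, then the kinase gene dco (511.3), Apc2 (380.8), Tnks (310.2), which encodes the Axin regulator Tankyrase, CkIalpha (308.8), slmb (301.4), which encodes the F-box protein that targets Armadillo, and Apc (176.2). The kinase gene nmo had no promoter summit. Among the nuclear ones, gro, which encodes the co-repressor Groucho, had 3 promoter summits, the strongest with a signal of 1254 and ranks of 365, 220 and 238. The others were nej (520.3), ebd2 (342.1), hyx (330.7), pygo (201.4) and lgs (180.3); pygo and lgs encode the co-activators Pygopus and Legless. CtBP and ebd1 had none. The glypican genes dlp (787.1) and dally (146.7) and the Wnt carrier gene wls (198.8) were bound, and por, Notum and swim were not. Wnt2, Wnt4, Wnt5, Wnt10, WntD, fz3, fz4, Ror and drl had no promoter summit. Of the 21 bound genes among all 42, 14 had a promoter summit with no other protein-coding TSS within 500 bp. Summits at wls, dlp, Apc, Apc2, slmb, Tnks and pygo were shared with a neighbour, so that they do not tell which gene they belong to. By the count of found summits used above, some of the promoter summits listed here were not held by every replicate. The dally summit was found in replicate 3 only, with ranks of 11248, 8039 and 6077 in replicates 1, 2 and 3. That of Apc was found in replicate 2 only, with ranks of 14265, 3556 and 10560. Those of wls, CkIalpha, pygo and lgs were found in replicates 2 and 3 but not in replicate 1. Of the 17, 11 were also promoter-bound in every replicate. Leaving out replicate 1 gave 16, and leaving out replicate 2 or replicate 3 gave 11 each. No share of all protein-coding genes is given for these counts or for that of unshared summits.

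**Figure D4:**
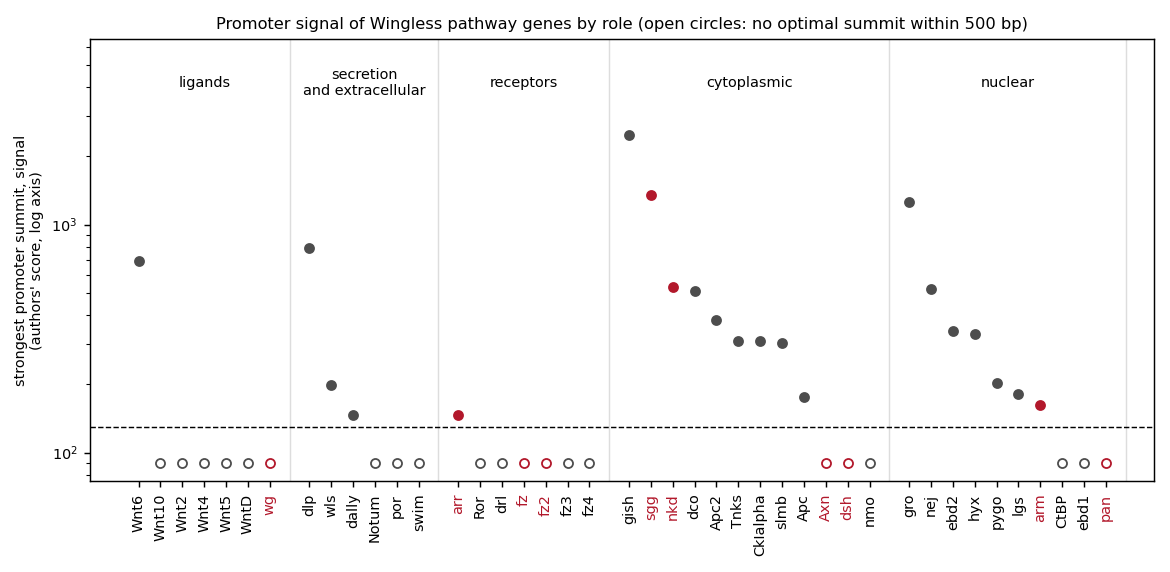
Signal of the strongest promoter summit (y axis, authors' score, log scale) of the 42 genes of both lists grouped by role. The 10 Wingless genes described first are in red. Open circles are genes with no promoter summit and have no value on the axis, and the dashed line is the weakest optimal signal, 128.9; filled points are most frequent among cytoplasmic and nuclear components, led by gish at 2473.

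The DNA under the summits was like that under all optimal summits in most measures. Within 150 bp of the summit the median GC content was 35.2% (21.6 to 45.8%), against 35.5% over the optimal list, and the median region width was 484 bp in both. The TCF core CTTTGAT, searched on both strands, was in 3 of 51 windows (5.88%) and in 5% of all optimal windows. These 3 are printed above. The core lay 54 bp from the summit of the sgg promoter, 11 bp from that of an fz2 intron (3L:19194262, signal 145.6) and 13 bp from that upstream of Axn. The fz2 summit was found in the strongest 7827 regions of replicate 1 only, with ranks of 4568, 8131 and 8809. No window at nkd held the core. GAGAG, the GAGA element, was in 17 windows (33.3%, against 30.3%), 13 of them in introns, and all 17 at fz, fz2, nkd or arr. Of all 51 windows, 35 were in introns and 42 were at these 4 genes. CGATA, the BEAF-32 motif, was in 15 (29.4%, against 38.8%). TATCGATA, the DNA replication-related element, which contains CGATA, was in 2 (3.92%, against 6.17%). GGTCACACT, the core of the promoter element motif 1, was in 2 (3.92%, against 3.05%), and 1 of these was the promoter summit of arr. The E-box CACGTG was in 2 (3.92%, against 3.02%). A match says only that these letters are present.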

How the data were processed

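Per the labels, sonicated chromatin of 200 to 800 bp from 3 biological replicates was precipitated through the tag; control libraries are not analysed here. Aligner, caller and reproducibility cut-off are not stated in the labels or files used. The authors deposited narrowPeak lists on dm6: peaks with background for replicates 1, 2 and 3 (29373, 30000 and 30000 regions) and for the pooled replicates (30000), and the optimal list (7827), which per the deposited text notes derives from these. The signal is a score deposited by the authors. The −log10 q value deposited by the authors is constant over the optimal list and was not used. Lists on dm3 were not used. The summit is the region start plus the deposited offset; in 9 optimal regions, none at these genes, it lies past the region end.

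The annotation was Ensembl release 115 and the sequence that of RefSeq Release 6; every dm6 region lies within its arms. All transcript starts counted as TSSs, and intron numbers are those of the longest transcript over the summit. A summit was classed in the order own promoter, other promoter, exon, own intron, body of another gene, flank. Where several replicate regions covered a summit, the best rank is given, so summits that share a region can share a rank. The members and lists were chosen with earlier results of these data known. All 32 symbols of the wider list matched, 2 of them (WntD and swim) up to letter case. All 10 genes, every summit in their loci, neighbours within 500 bp of such a summit and all genes of the wider list were named. No test was run, since there is 1 group; exact intervals cover counting of summits only. The assignment of summits, replicate matching and motif search were tested on simulated data. Python 3.11.15, NumPy 2.4.6, SciPy 1.17.1 and matplotlib 3.10.9 were used.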

Additional observations from a re-analysis of the deposited data

How the results depend on the processing

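The count of 4 promoter-bound genes was 4 with a window of 250 bp, where 24.4% of protein-coding genes were bound, and 5 (fz2 added) with 1000 bp, where 34% were, or with any overlap of the region. It was 2 (nkd and sgg) with the stronger 50% of regions, where the background was 19.7%, and 1 (sgg) with the 1000 strongest, where it was 6.91%. Asking also for both other replicates while leaving out each in turn gave 3 to 4. For the wider list of 17, against those same backgrounds, a window of 250 bp gave 11 of 32, 1000 bp 18, the stronger 50% of regions 12 and the 1000 strongest regions 4. It was 11 with all 3 replicates (chosen after seeing the data), and 11 to 16 with each replicate left out. No background share is given for the counts that also ask for replicates, here or for the 10 genes. The 51 summits became 45 and 60 with flanks of 2 and 10 kb, 20 with the stronger 50% of regions and 7 with the 1000 strongest, which hold fewer regions by construction. The 26 summits found in every replicate became 46 in the full lists, 10 in the 4000 strongest regions of each, 30 to 36 with each replicate left out, and 32 with any overlap of 1 bp, an alternative chosen after seeing the data. The 3 windows with the TCF core became 2 with 50 bp on each side (2.03% of all optimal windows) and stayed 3 with 250 bp (8%). No paired analysis was possible because there is 1 group. Read depth is unknown, so no value can be weighed by it.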

Other observations

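The gene wg lies in a cluster with Wnt4, Wnt6 and Wnt10, and summits of that cluster lay around wg rather than at it. Between 5 kb before Wnt4 and 5 kb after Wnt10 (2L:7250419-7382528, dm6) the optimal list had 14 summits. Wnt4 held 5 in introns, with signals of 134.2 to 284, and 1 more lay 4458 bp from its TSS (signal 307.9). A group of 5 summits lay 8220 to 14973 bp upstream of the wg TSS, outside any of the 4 genes. The strongest of these, 11062 bp upstream (2L:7295976-7296255), had a signal of 456.8 and ranked 1794 and 1760 in replicates 1 and 2, while no region of replicate 3 covered its summit. The Wnt6 promoter carried 2 summits (692 and 435.4), 410 and 204 bp from the TSS. The stronger ranked 435, 875 and 1137. Wnt10 had a single intronic summit, with a signal of 131, near the weakest of the list.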
